A study of Homo sapiens with 4 samples.

Results

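This account describes 990 sites on the arms of human chromosomes where p53 chromatin immunoprecipitation with sequencing (ChIP-seq) gave a peak in wildtype control cells and no overlapping peak in R273H cells. The sites were chosen by the measured peak positions. Starting from the 2059 peaks of the wildtype list, 437 that overlapped an R273H peak by at least 1 bp were left out, and 1622 remained, 78.8% of the list. Of these, 1194 lay at most 100 kb from the nearest annotated gene, 994 of them had a midpoint more than 3 Mb from both chromosome ends, and 4 more were dropped because they lay between 8 and 9 Mb on chromosome 21. No limit on the distance from the centromere was set. The remaining 990 are 990 of the 4067 peaks in both lists together (95% Poisson interval of the count 929.3 to 1053.6, counting error only). Because overlap with the R273H list made the selection, the lack of an R273H partner is a description and nothing is read from it.

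The cells were HCT116, an established human colorectal carcinoma line, grown as spheroids at passages 13 to 18 in medium with 20 ng/ml of each of the 2 growth factors EGF and basic FGF. One group carried p53-R273H, a substitution in the DNA-binding domain of p53, and the other was labelled wildtype control; how R273H was introduced is not stated in the labels. Each genotype had 1 ChIP library made with the antibody DO-1 and 1 input library made without an antibody, after crosslinking in 1% formaldehyde, and both groups shared the line, the medium and the protocol. No comparison of the genotypes has a replicate check, because each rests on a single ChIP library, and no p-value is given. Binomial and Poisson intervals cover counting error only, and neighbouring peaks are not independent. Read depth is unknown, and a site missing from the R273H list may still have held reads there. The lists cannot check the genotype labels. Of 23 marker genes of other cell types none had one of the 990 sites in or near it (95% upper limit 14.8%). That limit still holds the 3.28% of all protein-coding genes with a site, so this count does not check the cell type.

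The p53 protein is a transcription factor that binds DNA as a tetramer. Its response element consists of a pair of short palindromic motifs, and the genes beside such elements include those for cell cycle arrest, apoptosis and DNA repair. The arginine lost in R273H contacts the DNA backbone, and the change is one of the substitutions seen most often in colorectal tumours.

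Sequence from 5 start windows under the sites is printed here because these windows hold a match to the p53 response element. Their sites scored 238.72 (PURPL), 276.75 (PCNA), 253.41 (DDB2), 104.15 (GPX1) and 50.01 (LINC02051). RefSeq windows from 250 bases before to 50 bases after an annotated start, on GRCh38.p14, were searched for the p53 consensus element, taken as a pair of 10-base p53 motifs in tandem with no spacer and at most 2 mismatches in 20 bases. The motif is its own reverse complement, so one search covers both strands. Positions are counted from the first transcribed base as 0. The first sequence below is the 250 bases before the start of PURPL on the plus strand (chr5:27472042-27472291), which matched without a mismatch at chr5:27472165-27472184. The next is the 250 bases before the start of PCNA on the minus strand (chr20:5119959-5120208), with 2 mismatches at chr20:5120175-5120194. The last 3 are the matched 20 bases alone, at DDB2 (plus strand, chr11:47214969-47214988, 1 mismatch), GPX1 (minus strand, chr3:49358521-49358540, 2 mismatches) and LINC02051 (plus strand, chr3:186476418-186476437, 2 mismatches). Capitals mark the matched element, read 5′ to 3′ on the strand of the gene.
PURPL: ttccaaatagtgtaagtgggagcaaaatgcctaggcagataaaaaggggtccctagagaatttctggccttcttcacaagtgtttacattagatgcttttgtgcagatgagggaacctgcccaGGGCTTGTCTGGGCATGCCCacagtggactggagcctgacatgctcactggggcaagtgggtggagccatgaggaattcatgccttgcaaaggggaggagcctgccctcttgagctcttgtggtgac
PCNA: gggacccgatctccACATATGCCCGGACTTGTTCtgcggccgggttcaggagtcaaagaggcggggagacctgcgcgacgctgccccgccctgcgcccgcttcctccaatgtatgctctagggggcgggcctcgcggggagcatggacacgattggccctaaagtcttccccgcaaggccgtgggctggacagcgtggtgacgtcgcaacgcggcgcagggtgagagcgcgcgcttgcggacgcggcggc
DDB2: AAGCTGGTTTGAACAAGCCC
GPX1: GGGCCAGACCAGACATGCCT
LINC02051: TAACATGTCTGGGCATGCAT

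In all, 35 start windows lay under 30 of the 990 sites, which is 0.0997% of the 35116 windows. Of the 35 windows, 5 held the element, 14.3% (95% exact binomial interval 4.81 to 30.3), against 228 of all 35116 windows, 0.649%. The element was found in 4 of 5 windows under sites scoring at least 100 (28.4 to 99.5%), against 1 of 30 (3.33%, 0.0844 to 17.2) under sites scoring below 100. At shared wildtype peaks under the same limits on position, 7 of 21 windows held it, 33.3% (14.6 to 57.0), and at R273H-only peaks 1 of 5 did. These intervals overlap those of the 35 windows. A match without a mismatch occurred in 1 window under the 990 sites (PURPL), in 4 windows under shared peaks and in 6 windows of all. A match describes letters in a window and is not evidence that p53 sat on them. The elements of PURPL, PCNA, DDB2 and LINC02051 lay inside their peaks, while that of GPX1 ended short of its peak, which starts at base 49358553. The windows under the 990 sites had a median GC content of 66.7%, compared with 58.7% over all windows, and a median ratio of observed to expected CpG of 0.895, compared with 0.579. They thus differed from the whole set of windows in base composition as well, and its part in the share of matches was not tested.

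The scores are the authors' own values, on a scale not given in the sources used here, and are used only to rank peaks within a list. Most of the 990 sites were low in that ranking. Their scores ran from 50.01 to 1569.56 with a median of 61.94 (quartiles 54.73 and 78.665), and their widths from 58 to 6354 bp with a median of 201 bp. Scores from 50 up to 60 were given to 431 sites, or 43.5%, and scores of at least 100 to 160 sites, or 16.2% (13.9 to 18.6). The 333 shared wildtype peaks had a median score of 514.44, and 304 of them, 91.3%, scored at least 100. In width, the median rose from 171 bp in the lowest score class to 432 bp in the 47 sites scoring at least 200.

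Apart from chromosome 21, the nearest peaks inside and outside at the edges of the rule were as follows. The smallest gap between a chosen site and an R273H peak was 8 bp (chr6:111483743-111483897, score 71.89), and the smallest overlap of a peak that was left out was 17 bp (chr15:88621615-88621748, 52.43). The largest accepted distance to a gene was 99119 bp (score 125.58), and the next peak outside stood at 102238 bp (60.64). The accepted midpoint nearest to a chromosome end lay 3027769 bp from it (56.17), and the nearest one left out 2936973 bp (52.6). On chromosome 21 the accepted site with the lowest midpoint had it at base 5603780 (54.27), and the last peak dropped at base 8844001 (53.38). Another accepted site, at chr21:7480591-7480977 (54.27), lay closer to the dropped stretch.

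The gap from each site to the nearest R273H peak is given as a description, since the rule itself required that the peaks not overlap. The median gap to the nearest R273H peak was 770.027 kb (quartiles 174.541 and 1998.3 kb). An R273H peak lay within 1 kb of 26 sites, within 10 kb of 63 and within 100 kb of 182, 18.4% (16 to 20.9). Of the 632 R273H-only peaks, 9 had a wildtype peak within 1 kb, 38 within 10 kb and 132 within 100 kb, 20.9% (17.8 to 24.3). The 5 smallest gaps were 8 bp at the start of REV3L, the catalytic subunit of DNA polymerase zeta, 10 bp in the pseudogene LRRC37A11P, 12 bp in GDNF-AS1, 18 bp in LOC107986487 and 21 bp near LINC01411. The sites at these genes scored between 53.85 and 71.89, so all 5 were weak wildtype peaks. Their R273H neighbours had scores of 125.6, 1177.64, 306, 52.37 and 485.77 in their own list. Within 10 kb of a shared wildtype peak lay 27 sites (2.73%), 18 of them within 1 kb; these include those at REV3L, LRRC37A11P, GDNF-AS1 and LINC01411.

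Most of the sites lay inside a gene, but the rule kept only peaks at most 100 kb from one. Without that limit the set held 1418 sites, and those added overlap no gene. What share of the genome lies inside genes was not computed. An annotated gene was overlapped by 668 of the 990, 67.5% (64.5 to 70.4), and a protein-coding gene by 466, 47.1% (43.9 to 50.2). A lncRNA gene, which makes a long noncoding RNA, was overlapped by 186, and by 127 of them without a protein-coding gene. Between genes, 147 sites lay at most 10 kb from one and 175 farther away. Shared wildtype peaks overlapped a gene in 61.3% (55.8 to 66.5) and R273H-only peaks in 59.2% (55.2 to 63.0), and the last interval does not reach that of the 990 sites. For protein-coding genes the R273H-only share was 36.2% (32.5 to 40.1). The share depended on score: 54.4% (46.3 to 62.3) of the sites scoring at least 100 overlapped a gene, and 70.0% (66.8 to 73.1) of those below. The median score was 60.74 in protein-coding genes, 66.04 in lncRNA genes and 63.29 more than 10 kb from a gene. The plot of scores by location shows the whole range at each.

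**Figure D1:**
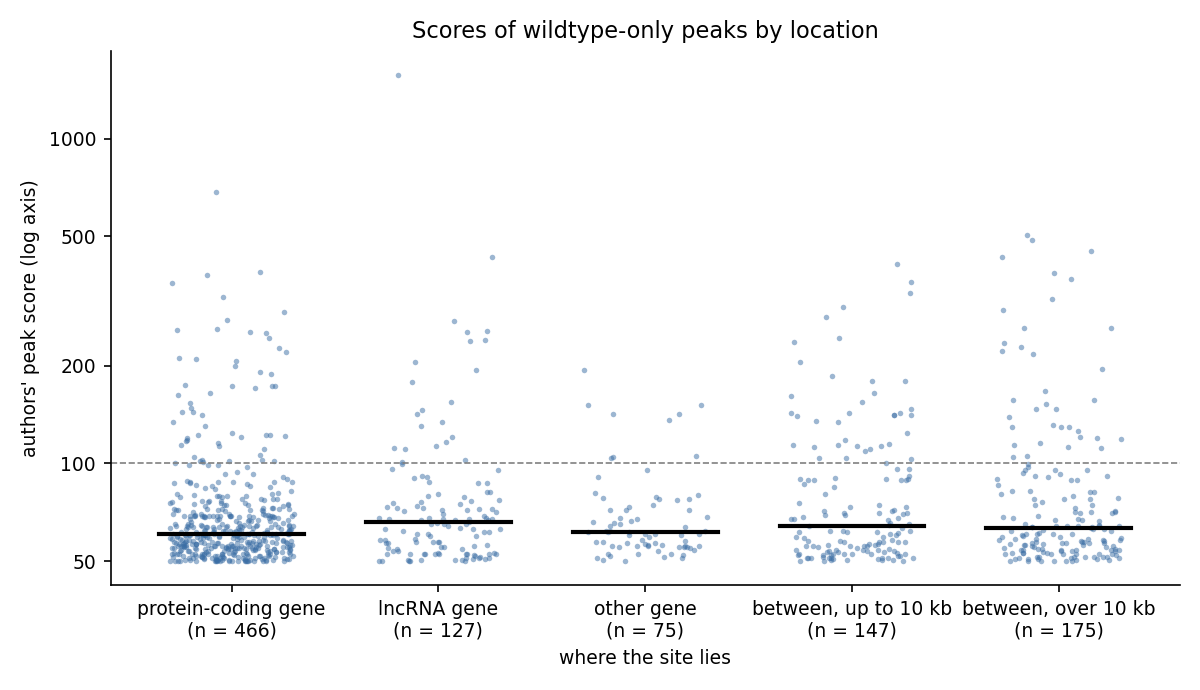
Score of each of the 990 sites (logarithmic axis, the authors' score) by where it lay relative to genes; each point is 1 site and the line marks the median. The medians lie between 60.74 and 66.04, and the highest sites are in the lncRNA gene LINC01470 (1569.56) and in STAT3 (685.71).

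Within protein-coding genes the sites leaned towards the far end. Where the strand was known, 390 pairs of a site and a gene could be placed along the gene: 66 lay in the first 20% of its length and 119, 30.5% (26.0 to 35.3), in the last 20%. Shared wildtype peaks had the opposite order, with 30.3% (22.2 to 39.3) in the first 20% and 15.1% (9.22 to 22.8) in the last 20%. R273H-only peaks had 33.9% (27.0 to 41.4) in the last 20%. Among sites scoring at least 100, 6 of 45 pairs (13.3%, 5.05 to 26.8) fell in the last 20%, against 113 of 345 (32.8%, 27.8 to 38.0) below that score. The higher share at the far end was thus among the sites scoring below 100. Leaving out sites in groups of 3 or more neighbours, a choice made after seeing the data, gave 31.5%.

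Few of the sites lay near an annotated start. The share of the genome near a start was not computed, so these counts do not show whether starts were favoured or avoided. Of 938 sites on chromosomes with annotated starts at hand (52 sites on chromosome 8 had none), 38 lay within 250 bp of a start, 4.05% (2.88 to 5.52), and 58 within 1 kb, 6.18% (4.73 to 7.92). More than 50 kb separated 305 sites, 32.5%, from any start. Shared wildtype peaks lay within 1 kb in 28 of 313 cases, 8.95% (6.03 to 12.7), and R273H-only peaks in 23 of 594, 3.87% (2.47 to 5.75). Within 250 bp the R273H-only share was 0.842% (0.274 to 1.95), below the interval of the wildtype-only sites. Among sites scoring at least 100 the share within 1 kb was 6.12% (9 of 147, 2.84 to 11.3), and below that score it was 6.19%.

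**Figure D2:**
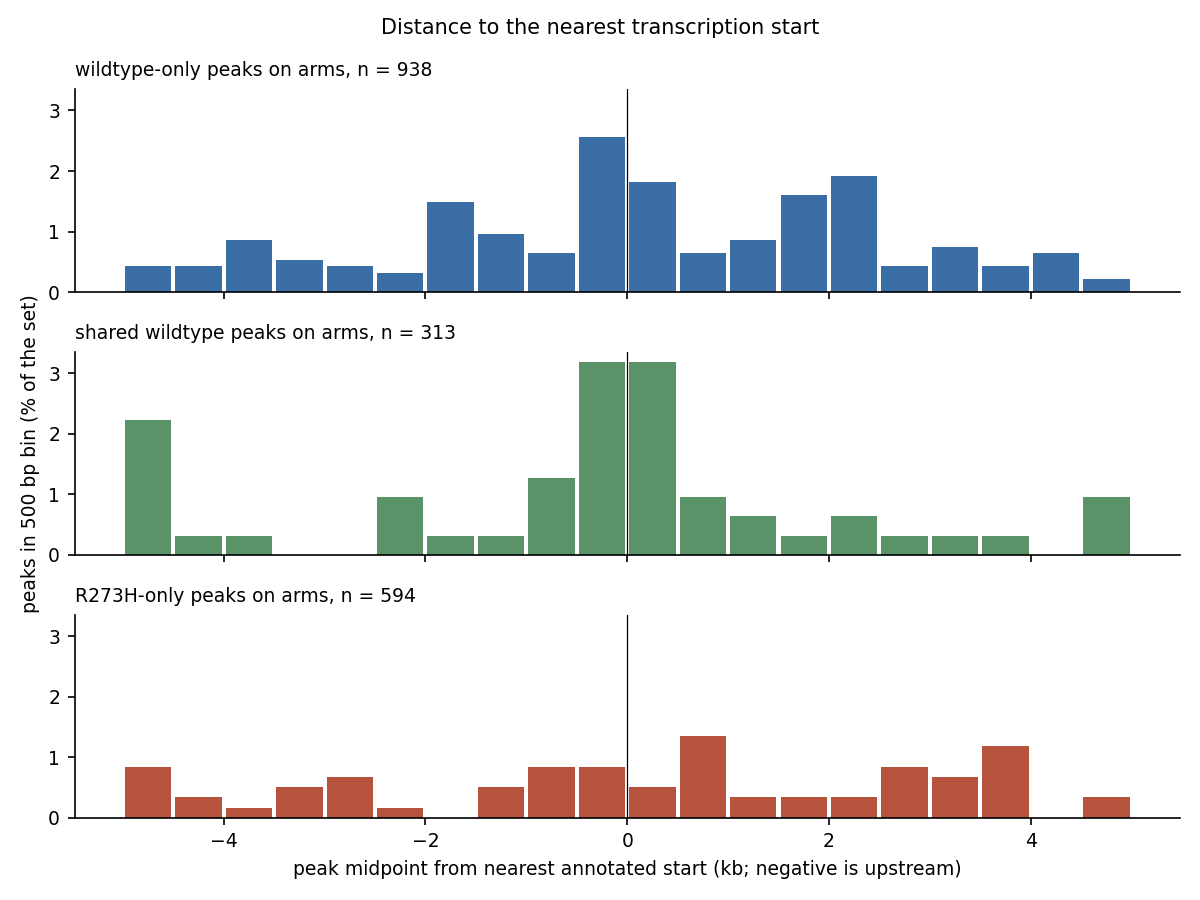
Percent of each set of peaks, in bins of 500 bp, by distance from the peak midpoint to the nearest annotated start, from 5000 bp before to 5000 bp after it, in 3 panels for the wildtype-only sites, the shared wildtype peaks and the R273H-only peaks. Midpoints within 250 bp of the start number 27 of 938, 13 of 313 and 3 of 594.

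Of the 10 highest-scoring sites over a protein-coding start window, the first 4 lay at genes on the lists of p53 targets. PCNA, the sliding clamp of DNA replication, had a site scoring 276.75 (chr20:5120005-5120304). DDB2, which recognises ultraviolet damage in DNA, had one scoring 253.41 (chr11:47214720-47215374). GPX1, a glutathione peroxidase, had one of 104.15 and BBC3, which encodes the apoptosis inducer PUMA, one of 101.63. The best match to the element in the BBC3 window had 5 mismatches. Below 100 came TVP23C and its readthrough TVP23C-CDRT4 at 1 site (95.77), MTF2, a Polycomb partner (90.04), REV3L (71.89), RAB22A, a small GTPase of endosomes (69.82), DHRS3, a retinal reductase (65.05) and TAF11L3 (63.24). Their windows had between 4 and 7 mismatches at best.

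Read gene by gene, 1334 of 59679 annotated genes had one of the 990 sites inside or within 10 kb, 2.24%. The share was 3.28% for protein-coding genes (657 of 20037) and 1.67% for lncRNA genes (306 of 18303). It rose with gene length, from 1.47% of genes under 10 kb to 10.1% of those over 500 kb (37 of 365). Shared wildtype peaks reached 0.669% of genes and R273H-only peaks 1.22%. Of the 1334 genes, 48 also had a shared wildtype peak, 107 had an R273H peak of any kind, and 1227 had none.

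Genes known as direct p53 targets were counted over 4 lists. Of 154 such genes 17 had a site, 11% (6.56 to 17.1), beside 2.24% of all genes and 3.28% of protein-coding genes. Shared wildtype peaks reached 19 of the 154 (12.3%, 7.59 to 18.6) and R273H-only peaks 6 (3.90%, 1.44 to 8.29). These 17 genes were reached by 19 distinct sites, 8 of which scored at least 100. For 14 of the 17 no shared wildtype peak lay within 10 kb; CDKN1A, BBC3 and REV3L were the exceptions. For 13 no R273H peak lay within 10 kb, the other 4 being those 3 and FUCA1. Of all 1334 genes with a site, 1227 had no R273H peak and only 48 had a shared wildtype peak. The p53 targets thus did not lack such peaks more often than genes with a site in general.

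Among arrest and feedback genes 2 of 19 had a site. At CDKN1A, the gene of the cyclin-dependent kinase inhibitor p21, it scored 170.27 (chr6:36677247-36677587). It lay inside the gene, 972 bp from the nearest annotated start of any gene, and stood 436 bp from an R273H peak. It also stood 364 bp from a shared wildtype peak scoring 3105.98, the highest of the shared peaks under the same limits. At TP53INP1, a stress-induced p53 cofactor, the site lay 239 bp outside the gene and scored 88.13. On this list 8 genes had a shared wildtype peak.

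Of the apoptosis genes 4 of 17 had a site. BAX, which permeabilises the outer mitochondrial membrane, had one of 220.47 inside the gene (chr19:48955006-48955410), 131 bp from its start and 1198197 bp from the nearest R273H peak. The BBC3 site lay 949 bp from an R273H peak and 925 bp from a shared wildtype peak scoring 1212.39. CASP8, an initiator caspase, had a site of 78.62 inside the gene, 26068 bp from the nearest start. TNFRSF10C, a decoy receptor for the death ligand TRAIL, had one of 60.64. BAX and BBC3 thus had their site at or beside a start, and CASP8 did not.

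Repair and metabolism genes had a site in 5 of 34 cases. Shared wildtype peaks reached 5 of the 34 as well, and R273H-only peaks also 5. Besides PCNA, DDB2 and GPX1, the potassium chloride cotransporter gene SLC12A4 had a pair of adjacent sites scoring 87.45 and 52.43, the first of them 165 bp from the nearest start. FUCA1, the lysosomal alpha-L-fucosidase, had another adjacent pair, 76.82 and 52.7, at 7657 and 7835 bp from the gene. The nearest R273H peak stood 3342659 bp from the PCNA site, 1528307 bp from the DDB2 site and 2841055 bp from the GPX1 site.

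Of 86 further direct targets 6 had a site. MICALL1, an endosomal recycling protein, came first with 179.24 at 7064 bp from the gene, followed by the Ras-related GTPase RAP2B (104.15 at 1253 bp) and REV3L. ZSCAN29 (54.43), FAM210B (53.06) and the calcium-activated potassium channel KCNN4 (50.32) had sites in the lowest score class.

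Noncoding RNA genes linked to p53 had a site in 8 of 32 matched cases, 25% (11.5 to 43.4), beside 1.67% of all lncRNA genes. They were not 8 separate sites. PANDAR and DINOL were both reached by the CDKN1A site, and PCNA-AS1 by the PCNA site. PURPL, a lncRNA that limits p53 levels, had one of 238.72 over its start (chr5:27472050-27472385), and no R273H peak lay nearer than 5460810 bp. TP53TG1 had a site of 110.73 inside the gene. PVT1, the neighbour of MYC, had 95.27, the snoRNA host GAS5 had 52.15 and DLEU1 had 50.01. The annotated start nearest to the GAS5 site, 236 bp away, was that of ZBTB37. At PANDAR, DINOL, PVT1 and DLEU1 both a shared wildtype peak and an R273H peak lay within 10 kb of the gene, and at the other 4 neither did.

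Of 32 genes that regulate p53 or belong to its family 3 had a site: TP73, the p53 relative (55.65), MDM4, an inhibitor of p53 (55.24), and the mitotic kinase AURKA (53.06), whose site is the one also counted for FAM210B. All 3 scored below 60. Of 40 cell cycle genes repressed through p21 none had a site (95% upper limit 8.81%), a limit that still holds the 3.28% of all protein-coding genes.

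Outside the p53 lists the counts were small, and the intervals of the next 4 lists all hold the 3.28% of protein-coding genes. JAK-STAT and interferon genes had a site in 3 of 35 cases, 8.57% (1.80 to 23.1), of which STAT3, a cytokine-activated transcription factor, held the second highest of the 990 (685.71, chr17:42337865-42338577). STAT6 had 141.07 and IRF3 52.47. Among Wnt genes 2 of 40 (0.611 to 16.9%) had one, at ZNRF3, a ubiquitin ligase that removes Wnt receptors (162.57), and at LEF1, a transcription factor of the pathway (101.59). The colorectal stem cell list had 1 of 32 (0.0791 to 16.2%), at the Ephrin receptor gene EPHB2 (56.87). DNA damage response genes had 1 of 40 (0.0633 to 13.2%), the helicase gene WRN, with adjacent sites of 206.66 and 98.57. Genes of common fragile sites had 6 of 39, 15.4% (5.86 to 30.5), beside 10.1% of all genes over 500 kb. These were ROBO2 with 4 sites (up to 97.25), RBFOX1 (70.7), DLG2 (69.04), ERBB4 (60.64), LPP (59.04) and EYS with 2, and none reached 100. The median gene on this list was 1369.27 kb long, so its count belongs beside that of long genes. R273H-only peaks also reached 6 of these 39 genes, and shared wildtype peaks reached 0.

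**Figure D3:**
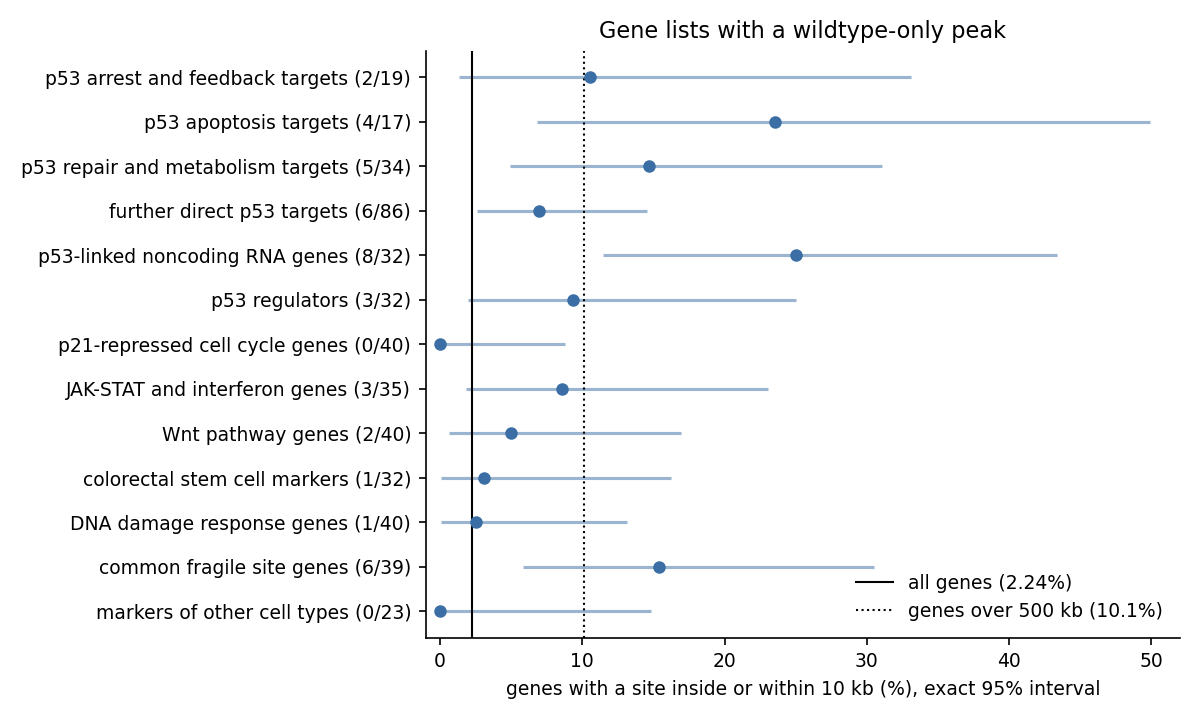
Percent of the genes of each list with one of the 990 sites inside or within 10 kb, with exact 95% binomial intervals; the vertical lines mark all genes (2.24%) and genes over 500 kb (10.1%). The 3 highest lists are the p53-linked noncoding RNA genes (25%), the p53 apoptosis targets (23.5%) and the fragile site genes (15.4%), and the p21-repressed genes and the markers of other cell types are at 0.

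The highest-scoring sites were mostly away from protein-coding starts. LINC01470, a lncRNA gene, held the first (1569.56, chr5:152811886-152812571), with the nearest R273H peak 1965180 bp away. After STAT3 came sites 11822 bp from the pseudogene RPS2P6 (504.94), 33720 bp from VENTXP2 (487.05), 62725 bp from LMNTD1 (450.31) and 56478 bp from LINC01049 (433.04). LOC105374557 (430.77) and the synaptic scaffold gene TANC2 (387.85) contained theirs, and LOC105370061 (410.93) had one 7370 bp away. The remaining 6 of the first 15 were near LINC02500 (386.42), in NEGR1, a neuronal adhesion gene (380.07), near LOC124900981 (368.99), near MTCO2P1 (361.81), in ADORA2B, an adenosine receptor gene (359.37), and near MTCYBP31 (335.67). None of the 15 overlapped a start window, beside 30 of all 990 sites, so this does not set them apart. Inside a gene lay 6 of the 15, beside 668 of the 990.

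Among lncRNA genes, which the study set out to find, the next after these were PCNA-AS1 (276.75), LINC01435 (274.54), LOC105379263 and LOC124902168 at 1 site (255.48), LOC105376050 and LOC124902158 at another (253.95), and LOC124901170 (251.72). The site of LOC124901170 lies inside SEMA5A, a semaphorin gene. The sites scoring 255.48 and 253.95, both on chromosome 9, each lay 6726 bp from the second gene named. Whether they lie in similar copies was not tested. How reads that match several copies were assigned is not stated. None of these first 10 lncRNA genes had an R273H peak or a shared wildtype peak within 10 kb. Of all 1334 genes with a site, 1227 had no R273H peak and only 48 had a shared wildtype peak. Genes with a LINC symbol had a site in 67 of 2317 cases, 2.89% (2.25 to 3.66).

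MicroRNA genes had a site in 14 of 1913 cases, 0.732% (0.401 to 1.22), beside 1.47% of all genes under 10 kb. The one with most sites was MIR601, inside DENND1A, where 3 adjacent sites scored 110.31, 98.53 and 98.53 at 2353, 1925 and 3051 bp from it. Its mature sequence in RefSeq is given with the seed, bases 2 to 8, in capitals.
hsa-miR-601: uGGUCUAGgauuguuggaggag

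Gene families were counted by symbol, beside the 2.24% of all genes. ZNF genes had a site in 21 of 701 cases (3.0%), SLC genes in 16 of 537 (2.98%), ribosomal protein genes and their pseudogenes in 21 of 1993 (1.05%), RNU genes in 13 of 1837 (0.708%), KCN genes in 2 of 128, COL genes in 2 of 56, SEMA genes in 2 of 25, EPH genes in 1 of 17 and CDH genes in 0 of 36. Protocadherin genes, whose products are neuronal adhesion proteins encoded in tandem arrays, had one in 18 of 83 cases, 21.7% (13.4 to 32.1), through 11 sites in 1 array. No shared wildtype peak fell at a protocadherin gene, while 2 R273H-only peaks did.

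Many sites came in tight groups. Another of the 990 lay within 100 kb of 266 sites, 26.9% (24.1 to 29.7), compared with 13.5% (10.0 to 17.7) of shared wildtype peaks and 27.2% (23.8 to 30.9) of R273H-only peaks. Neighbours were sought only within each set, and the sets held 990, 333 and 632 peaks. A larger set has closer neighbours by its size alone, so these shares do not rank the sets by grouping. Among the 990 there were 23 groups of at least 3, holding 126 sites. The 7 groups with at least 6 sites had no shared wildtype peak within 10 kb.

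The largest group held 16 sites in 34386 bp of chromosome 2 (chr2:91499094-91533479, scores 54.22 to 222.39) with no gene in the span. The next held 15 sites over the tandem 5S ribosomal RNA genes of chromosome 1 (chr1:228610184-228646805, 51.21 to 105.46). Each of these 15 overlapped a 5S gene, and their starts were a median of 2241 bp apart. Through this group 17 of 49 rRNA genes had a site, 34.7% (21.7 to 49.6). The third group was the protocadherin beta cluster on chromosome 5 with 11 sites of 51.07 to 74.27, annotated together as PCDHB@. Then came 10 sites in the lncRNA gene CYKILR on chromosome 19 (50.42 to 73.2, a median of 2558 bp between starts), 9 at the REXO1L pseudogenes of chromosome 8 (52.26 to 142.52) and 8 at the TBC1D3 genes of chromosome 17 (50.18 to 70.02). The 5S, protocadherin, REXO1L and TBC1D3 genes are families of similar copies, and how reads that match several copies were assigned is not stated, so the copy a site belongs to is uncertain. Whether the evenly spaced sites in CYKILR lie in similar copies was not tested. The group at REXO1L differed from the others of this size in that 7 R273H peaks lay within 10 kb.

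Transfer RNA genes had a site in 46 of 443 cases, 10.4% (7.70 to 13.6), beside 1.47% of all genes under 10 kb, through 16 sites, since neighbouring genes share one. On chromosome 1, 7 sites reached 25 of them, and 6 of these sites formed a group between bases 161399644 and 161470506 with scores of 56.88 to 151.16. In this group a pair of sites shared a score of 151.16 and a width of 2529 bp, and another pair 141.95 and 2528 bp. The copy a site belongs to is uncertain here too, so the tRNA share need not count separate binding events. On chromosome 6, 6 sites reached 16 more, with scores of 51.07 to 95.95. Single genes with several sites outside these arrays included ROBO2 with 4 in 2462 bp, and LOC124903339, AFAP1 (an actin filament binding protein) and DENND1A with 3 each.

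**Figure D4:**
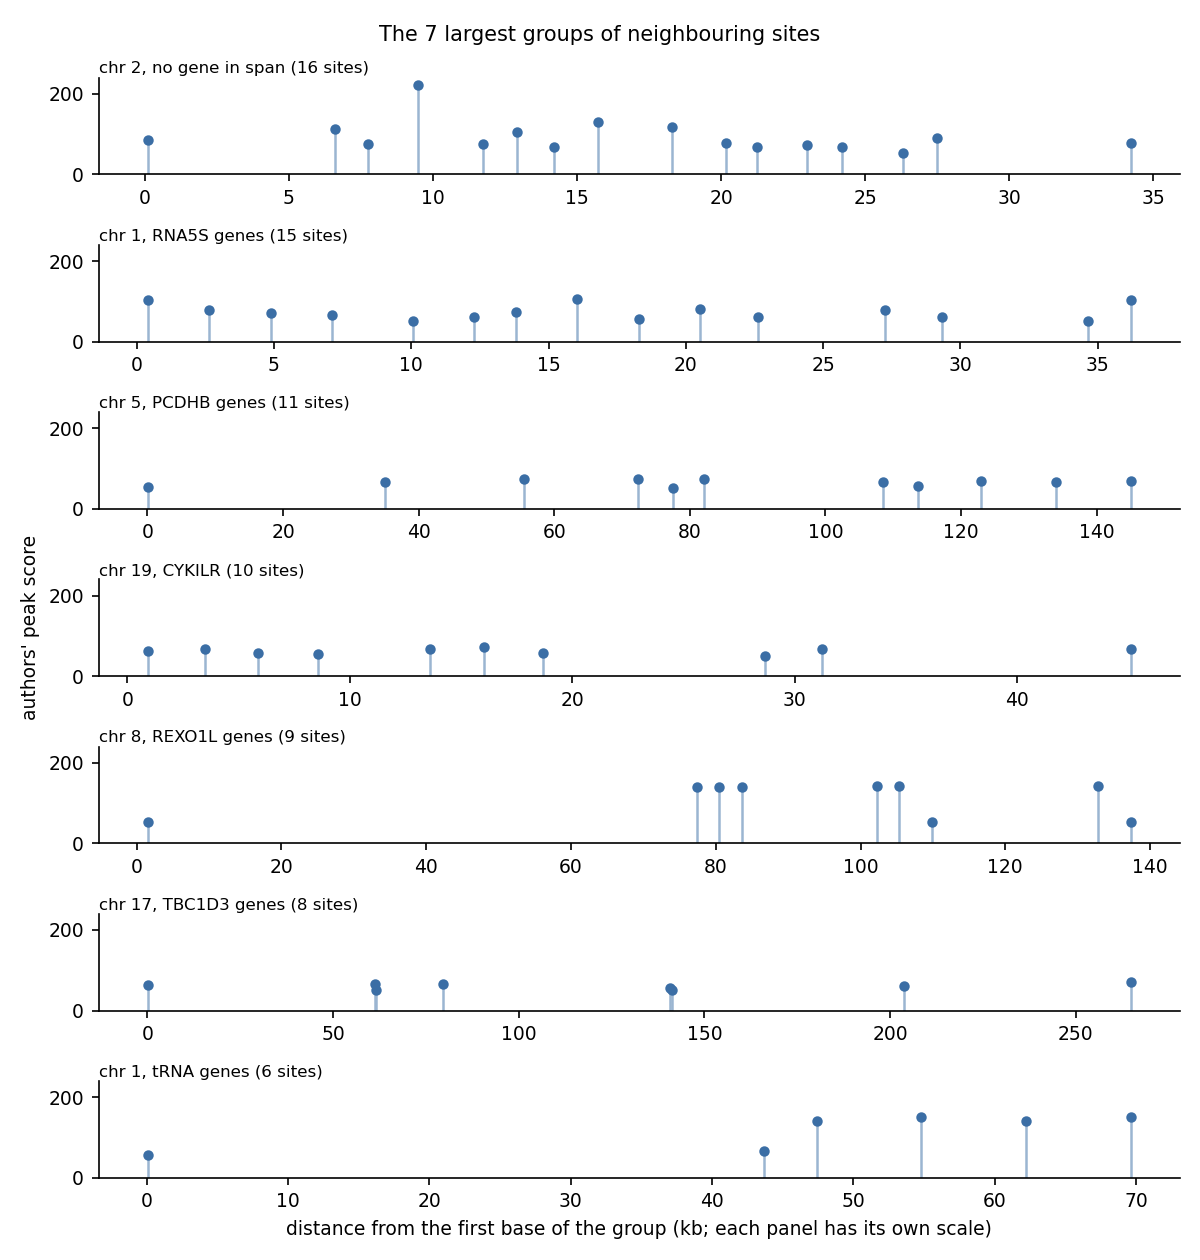
Position and score of the sites in the largest groups of neighbours; the horizontal axis is the distance from the first site of the group, the vertical axis the authors' score, and each point is 1 site. Sites over the 5S genes recur about every 2241 bp, and those in the protocadherin beta cluster all score below 75.

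The density of sites differed more between chromosomes per length than per gene. There were 3.21 sites per 10 Mb over all chromosomes, with the most on chromosomes 19 (8.02), 17 (5.77) and 22 (5.31). The fewest per length were on Y (0.699) and X (1.22), where 4 and 19 sites lay. Per 1000 annotated genes the value over all chromosomes was 16.6, and chromosomes 19 (17.4) and 17 (17.7) lay close to it, while Y (6.89), X (8.11) and chromosome 10 (10.5) stayed below. Within 3 Mb of the widest stretch without genes on their chromosome lay 107 sites, 10.8% (8.94 to 12.9), compared with 5.41% (3.23 to 8.41) of shared and 17.7% (14.8 to 20.9) of R273H-only peaks.

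**Figure D5:**
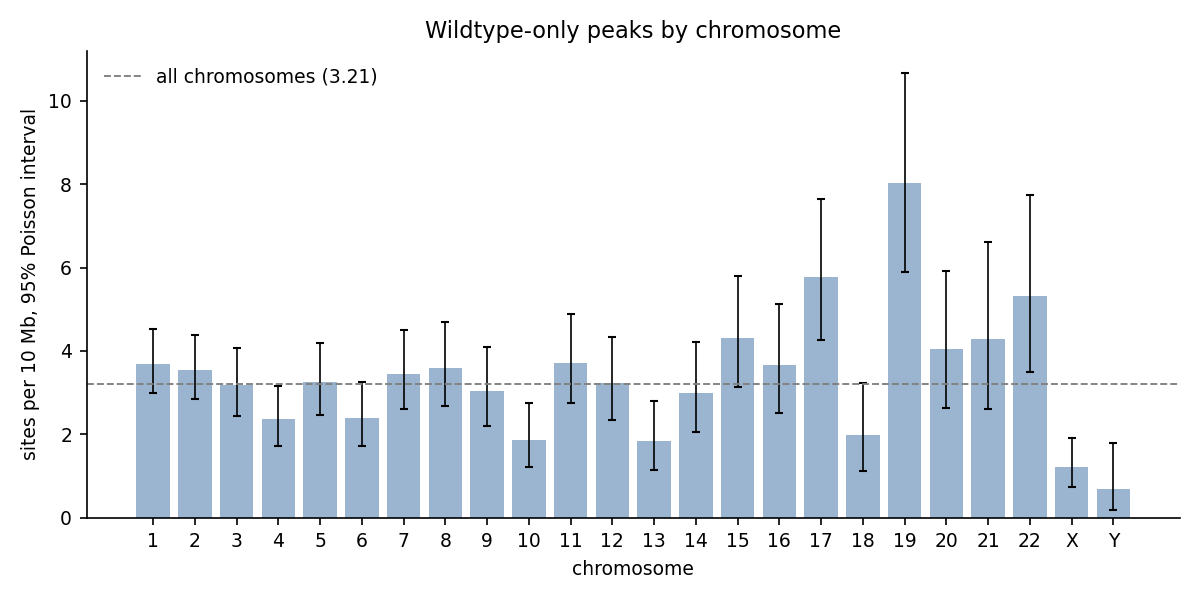
Wildtype-only sites per 10 Mb of each chromosome, with 95% Poisson intervals for counting error. Chromosome 19 is highest at 8.02 and Y lowest at 0.699, against 3.21 over all chromosomes.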

How the data were processed

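The peak lists of p53 ChIP-seq were used, 1 per genotype. They hold position, peak name and a score that the authors deposited without stating its scale. Per the submitters' processing notes the tools were Bowtie 1.2.2, MACS and HOMER with build hg38, and no role is stated for any of them. Threshold, input use and pooling are not stated there. The sample descriptions name the lists inconsistently, so each list was matched to a ChIP title by its name. Wildtype peak numbers began at 228 and R273H numbers at 193; peaks with lower numbers were not analysed here.

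Genes, starts and sequences came from RefSeq tables of GRCh38.p14 (59679 genes), without exons and without starts for chromosome 8; lengths of hg38 chromosomes were entered by hand and no gene or peak exceeded them. A peak counted for a gene when inside it or within 10 kb. No genome sequence was used here, so the planned motif search in whole peaks was replaced by one in start windows. Of 472 symbols in 13 gene lists, 463 matched by symbol and 7 by a synonym; TP53COR1 and PRAL did not. The members and the lists were chosen with earlier results of these data known.

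Genes were named by rule: the 15 highest sites, up to 12 genes per list, the 10 highest lncRNA genes and protein-coding start windows, the 5 genes and 3 groups with most sites, the 5 sites nearest to an R273H peak, and the sites at each limit. One gene named by this rule is not reported here. Further groups, the tRNA genes, MIR601 and SEMA5A were named after their values were seen. Counts were made in Python 3.11.15 with pandas 2.3.3, numpy 2.4.6 and scipy 1.17.1, and figures with matplotlib 3.10.9; counting was tested on simulated data. Alternatives varied the partner rule, the gene distance, the gene types, the score, the start distance, the mismatches and the neighbour distance.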

Additional observations from a re-analysis of the deposited data

How the results depend on the processing

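The number of sites fell to 160 when only scores of at least 100 were kept, and ranged from 808 to 1418 under the other rules for partners, genes and chromosome ends. With that score filter, 54.4% of sites overlapped a gene, 230 genes of any type, 53 lncRNA genes and 8 p53 targets had a site, 9 sites lay within 1 kb of a start, the element was in 80% of start windows and 26 sites had a neighbour. The share overlapping a gene was 47.1% for protein-coding genes only and 59.9% for protein-coding and lncRNA genes. Counting sites inside genes only gave 724 genes, 174 lncRNA genes and 10 p53 targets; 2 kb gave 880 genes, and 50 kb gave 3412 genes and 785 lncRNA genes. A start distance of 250 bp gave 38 sites and one of 5 kb gave 170. Neighbours within 20 kb numbered 172 and within 500 kb 481. The other 20 of 40 alternatives stayed within 1.5 times or within the counting interval of the reported value, among them those that left out groups of 3 or more neighbours, chosen after seeing the data as were the start-window settings and the other chromosome ends. With at most 1 mismatch 5.71% of windows held the element. The search in the central 200 bp of each peak was not run. No paired analysis was possible because each genotype had 1 ChIP library. Without read counts the depth behind a peak is unknown.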

Other observations

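Of the 990 sites, 151 had the same score and the same width as another of them, 12 of these among the 160 sites scoring at least 100. Because scores near 50 are crowded, equal values there say little, and among the 559 sites scoring at least 60 the number was 47. The 12 lay in 5 sets. Of the sites over transfer RNA genes of chromosome 1, a pair shared a score of 151.16 and a width of 2529 bp, and another pair 141.95 and 2528 bp. At the REXO1L pseudogenes of chromosome 8, 3 sites scored 142.52 and 3 scored 140.49, all 603 bp wide. The remaining pair joined different chromosomes, with a site near DDX10 on chromosome 11 and one in SPG11 on chromosome 15 both scoring 124.19 over 214 bp. No reason for the equal values was tested.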
